A study of Mus musculus with 13 samples.

Results

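The RNA of 46 genes of mitosis and the cell cycle was followed in 2-cell mouse embryos whose fathers had received acrylamide or vehicle. The genes were chosen by symbol, and all 46 were among the 16739 genes listed in the embryo files. They cover cyclins and Cdk1, the kinases and phosphatases that switch Cdk1, the mitotic kinases, the spindle checkpoint, the anaphase-promoting complex with securin and separase, kinetochore, spindle and cytokinesis proteins, and condensin. Levels are FPKM, fragments scaled to transcript length and to the fragments mapped in a library. Of the 46 genes, 45 averaged at least 1 FPKM over the 9 libraries and were fitted together with every other gene past that limit, 9766 in all. The gene left out, Mos, had a mean of 0.788 FPKM.

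The fathers were mice of the Swiss strain, injected intraperitoneally on 5 days in a row with acrylamide, a small reactive compound found in fried and baked foods, or with phosphate-buffered saline (PBS) alone. The acrylamide dose was 25 mg per kg of body weight a day. Embryos of the group named AAE came from sperm collected 3 days after the last injection, which had been exposed while in the epididymis, where sperm mature. Embryos of the group named AAS came from sperm collected 24 days after it, which had been exposed as spermatocytes, the cells of the testis that undergo meiosis. Control embryos came from males given PBS, and the labels do not give the time at which their sperm were collected. All embryos were obtained by in vitro fertilisation, and each group had 3 libraries made from groups of embryos with the Nugen Trio kit. The labels give no ages and no number of animals or embryos behind a library. They do not say that replicates came from separate fathers, so p-values measure only the spread between these samples, which may be technical.

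A cell enters mitosis when Cdk1 bound to cyclin B becomes active, a step that Wee kinases restrain and Cdc25 phosphatases release. The spindle checkpoint then holds back the anaphase-promoting complex (APC/C) until the kinetochores are attached to the spindle, after which the APC/C marks securin and cyclin B for destruction and separase cuts the cohesin between sister chromatids. The mouse oocyte stores much of the RNA for the first divisions, and transcription from the embryo's own genome starts in earnest at the 2-cell stage, so that RNA of these genes can be maternal or embryonic.

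The embryo files list 11625 to 14392 genes per library and give no read counts, so depth is unknown and no counting error can be given. The defining genes of 2-cell embryos were present, with 14 of 14 averaging at least 1 FPKM and summing to 2350 to 2489 FPKM across control, 2041 to 2433 across AAE and 1900 to 2170 across AAS libraries. All 15 oocyte and maternal markers averaged at least 1 FPKM as well. Of 14 cumulus and granulosa cell markers 9 were listed in some library, summing to 0.78 to 8.91 FPKM, with Ptx3, Foxl2, Inha, Cyp11a1 and Lum at 0. Of 10 spermatid and sperm markers 3 were listed, summing to 0.51 to 1.85 FPKM across control, 3.55 to 7.02 across AAE and 0 to 0.82 across AAS libraries, with Prm1, Tnp1 and Tnp2 among those at 0. The largest sperm marker in AAE libraries 1, 2 and 3 was Odf1 at 1.89, Prm2 at 4.92 and Ldhc at 6.72 FPKM in turn. No sperm marker was higher in every AAE library than in every control library. The part of this difference between the sums in the AAE values was not tested. AAE library 3 and AAS library 2 stood apart, with median correlations of 0.872 and 0.870 with the other libraries where the remaining 7 had 0.894 to 0.927. The mean variance of log2(FPKM + 1) over genes was 0.216 for control, 0.442 for AAE and 0.536 for AAS.

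The promoters of these genes held known cell cycle elements more often than promoters at large, a feature that the choice of genes did not use and that was not tested. The CHR element is a short motif near the start of many genes of mitosis, read by the MuvB complexes, and CCAAT boxes, read by NF-Y, often stand next to it. RefSeq windows of 250 bases before to 50 after a transcription start (GRCm38.p6) were found for 37 of the 46 genes, with 40 windows in all. Bub3, Ect2 and Prc1 had 2 overlapping windows each, all with both motifs described here, so their shared matches were counted in each window. The letters TTTGAA or TTCGAA, searched on both strands, were in 28 of 40 windows (70.0%), in 43 of 135 windows of other cell cycle genes (31.9%) and in 6316 of 32851 windows of all genes (19.2%). The letters CCAAT, on both strands, were in 32 of 40 windows (80.0%), in 53.3% of windows of other cell cycle genes and in 37.4% of all windows. Matches of the 2 motifs can share at most 1 base, and 25 of 40 windows held both (62.5%). Both were in 19.3% of windows of other cell cycle genes and in 7.52% of all windows. A whole CHR match lay within 50 bases of the start in 62.5% of the windows here. That share was 21.5% for windows of other cell cycle genes and 5.31% for all windows. The windows of 4 genes described further on are shown in lower case with matches in capitals. These genes were picked with their group values known, and none of them was called by limma in the comparisons given there. They are Kif23 (chr9:61946750-61947049, minus strand), Espl1 (chr15:102296043-102296342, plus strand), Plk1 (chr7:122159185-122159484, plus strand) and Pttg1 (chr11:43425932-43426231, minus strand), all read 5′ to 3′ on the strand of the gene.

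Kif23: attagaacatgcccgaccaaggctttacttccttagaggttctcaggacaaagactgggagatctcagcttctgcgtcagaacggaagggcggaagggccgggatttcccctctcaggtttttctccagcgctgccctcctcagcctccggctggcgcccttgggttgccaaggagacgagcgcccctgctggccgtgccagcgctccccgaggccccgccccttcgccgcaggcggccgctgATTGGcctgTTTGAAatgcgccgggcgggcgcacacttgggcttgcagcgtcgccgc

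Espl1: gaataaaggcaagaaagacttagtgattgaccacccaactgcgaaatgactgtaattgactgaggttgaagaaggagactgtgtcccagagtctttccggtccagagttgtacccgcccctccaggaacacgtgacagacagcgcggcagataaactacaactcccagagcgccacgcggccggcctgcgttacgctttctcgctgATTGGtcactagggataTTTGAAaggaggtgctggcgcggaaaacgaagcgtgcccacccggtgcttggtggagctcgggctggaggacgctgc

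Plk1: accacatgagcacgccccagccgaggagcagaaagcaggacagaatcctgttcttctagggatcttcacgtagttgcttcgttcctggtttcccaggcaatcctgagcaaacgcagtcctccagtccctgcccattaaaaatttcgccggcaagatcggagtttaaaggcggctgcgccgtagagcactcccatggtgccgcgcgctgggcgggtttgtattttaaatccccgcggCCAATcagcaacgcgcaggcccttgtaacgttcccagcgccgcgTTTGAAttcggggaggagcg

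Pttg1: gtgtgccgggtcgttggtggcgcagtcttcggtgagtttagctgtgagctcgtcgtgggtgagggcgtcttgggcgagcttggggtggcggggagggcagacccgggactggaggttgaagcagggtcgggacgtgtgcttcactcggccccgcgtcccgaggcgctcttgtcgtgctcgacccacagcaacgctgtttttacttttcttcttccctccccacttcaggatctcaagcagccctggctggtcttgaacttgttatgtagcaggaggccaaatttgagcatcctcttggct

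Counting the start as base 1 with no base 0, the CHR match began at base 3 in Kif23, at base -27 in Espl1 and at base 31 in Plk1. A CCAAT match stood before it at base -7, -44 and -14, in the last of them on the strand of the gene and in the others on the opposite strand. The Pttg1 window, which belongs to a start inside the annotated span of the gene, held neither motif. Birc5, Ccne1, Mad2l1 and Nuf2 also had neither. The Wee2 window held 2 CCAAT matches and no CHR match. A match is a description of letters and not a measured binding site.

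In control embryos the genes spanned the range from barely listed to among the most abundant RNAs of the embryo. Wee2, the oocyte form of the kinase that keeps Cdk1 off, had 756 ± 80.7 FPKM (SD, n = 3), above 99.7% of the genes tested. Pttg1, which encodes securin, had 618 ± 124 FPKM, Ccnb1 (cyclin B1) 407 ± 46.6 and Ttk, the checkpoint kinase Mps1, 326 ± 63.1 (SD, n = 3 each). Low levels were found for Wee1, the somatic partner of Wee2, at 3.94 ± 1.86 FPKM, for Fzr1, an activator of the APC/C, at 6.30 ± 1.31, and for Ncapd2, a condensin subunit, at 6.64 ± 2.57 (SD, n = 3 each). Mos, the kinase that arrests the unfertilised egg, was at 1.56, 0 and 0.35 FPKM in the control libraries, where 0 means that it was not listed and can be a failed estimate. It stood at 2.13, 0.52 and 0.060 FPKM in AAE and 0.47, 1.74 and 0.26 in AAS, so the groups overlapped.

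**Figure D1:**
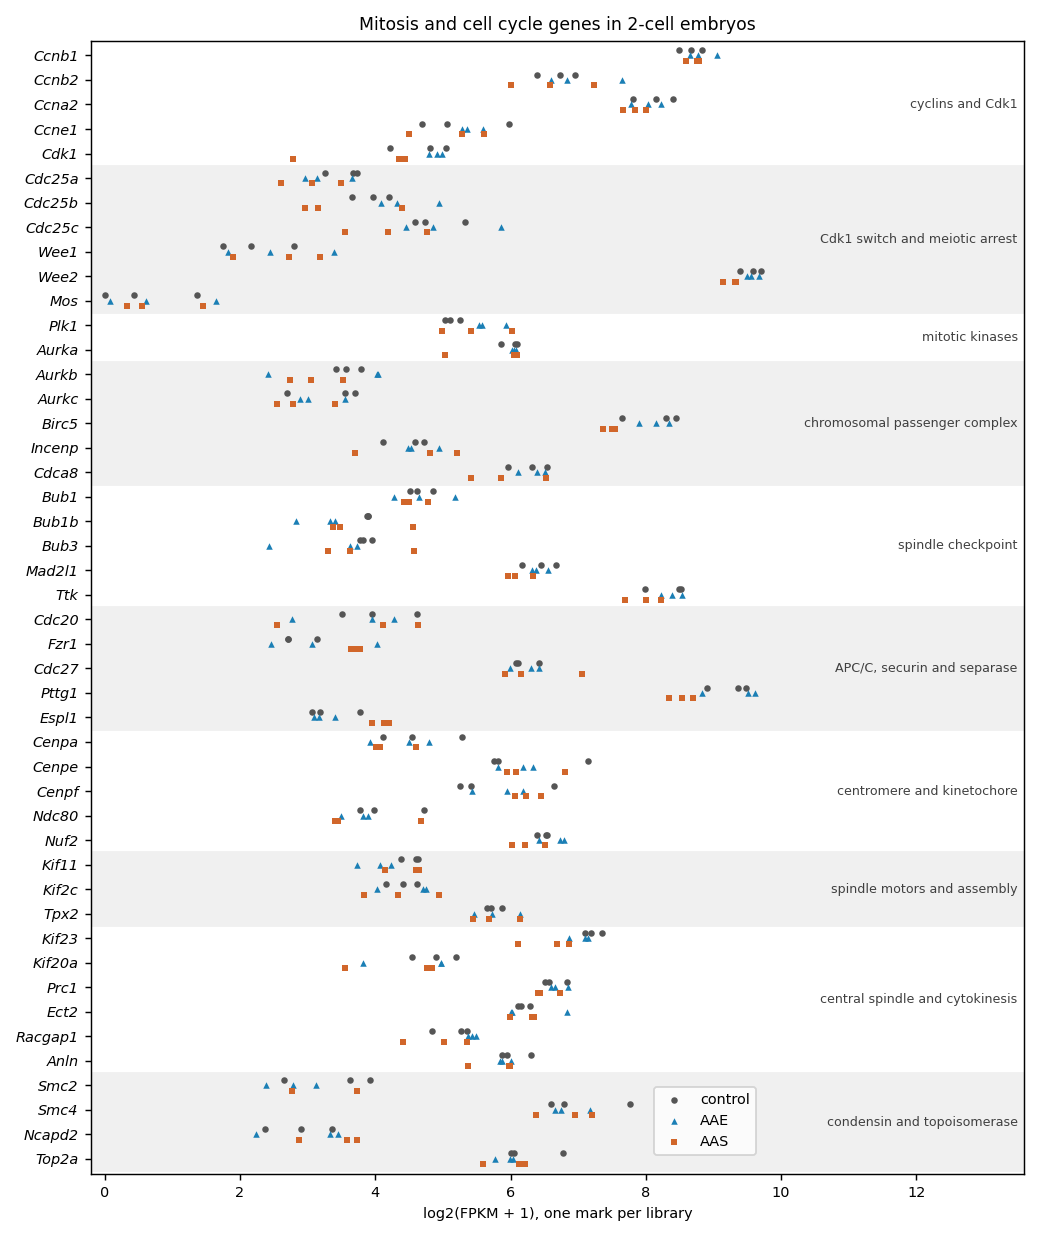
Level of each of the 46 genes in each library on the log2(FPKM + 1) scale, one mark per library, with the genes ordered by role and 3 libraries in each of the control, AAE and AAS groups. Most genes keep their place from library to library, with Wee2, Pttg1 and Ccnb1 at the top and Mos at the bottom, while the AAS marks of Pttg1, Birc5, Kif23 and Wee2 lie to the left of the control marks and those of Espl1 and Fzr1 to the right.

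No gene passed the test in any of the 3 comparisons. With limma on log2(FPKM + 1) and Benjamini-Hochberg adjustment over 9766 genes, 0% were called in AAE versus control, 0% in AAS versus control and 0% in AAE versus AAS, and thus 0 of the 45 mitosis and cell cycle genes. Their smallest adjusted p-values in limma were 1, 0.684 and 0.464. At an unadjusted limma p under 0.05, 0 of the 45 stood out in AAE versus control, where 206 genes (2.11% of those tested) did. In AAS versus control 4 did, against 6.16% of all genes, and in AAE versus AAS 6 did, against 7.73%. A 95% interval that stayed within 1 on the log2 scale was found for 26 of the 45 genes in AAE versus control (34.1% of all genes), for 27 in AAS versus control (29.2%) and for 23 in AAE versus AAS (28.8%). For those genes a change of 2-fold on this scale lies outside the interval, and for the others it does not. On the log2(FPKM + 1) scale, fold changes of weakly expressed genes are understated.

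The centre of the 45 genes lay close to 0 in AAE and below 0 in AAS. Their median log2 difference was 0.03 in AAE versus control, where the median of all genes was -0.05, with 25 genes above 0 and 20 below (44.6% of all genes were above 0). In AAS versus control it was -0.23 beside -0.11 for all genes, with 13 above 0 and 32 below (59.4% of all genes were below 0). In AAE versus AAS it was 0.18 beside 0.05, with 31 above 0 (54.5% of all genes). That median was 0.06 without AAS library 2, with 23 genes above 0. The AAS versus control median was -0.07 without AAS library 2, with 19 genes above 0. With FPKM rescaled to the same sum in each library, the median of all genes in AAS versus control moved from -0.11 to near 0, that of the 45 genes to -0.09, and 21 were above 0. In AAE versus AAS the same rescaling moved the median of all genes to -0.06 and that of the 45 genes to 0.05, with 26 above 0. The summed FPKM of the 2-cell embryo markers were also lower in AAS than in control without overlap. The FPKM of all genes summed to 403498, 403401 and 343796 in the control libraries and to 342502, 346989 and 351634 in the AAS libraries. After rescaling to the same sum, the markers overlapped, with AAS library 1 above control libraries 1 and 2. The part of these markers in the AAS values was not tested. AAE and AAS were each compared with the same control libraries, so these comparisons are not independent. A lower level in RNA from whole embryos cannot tell fewer cells or embryos with the RNA from less RNA in each.

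**Figure D2:**
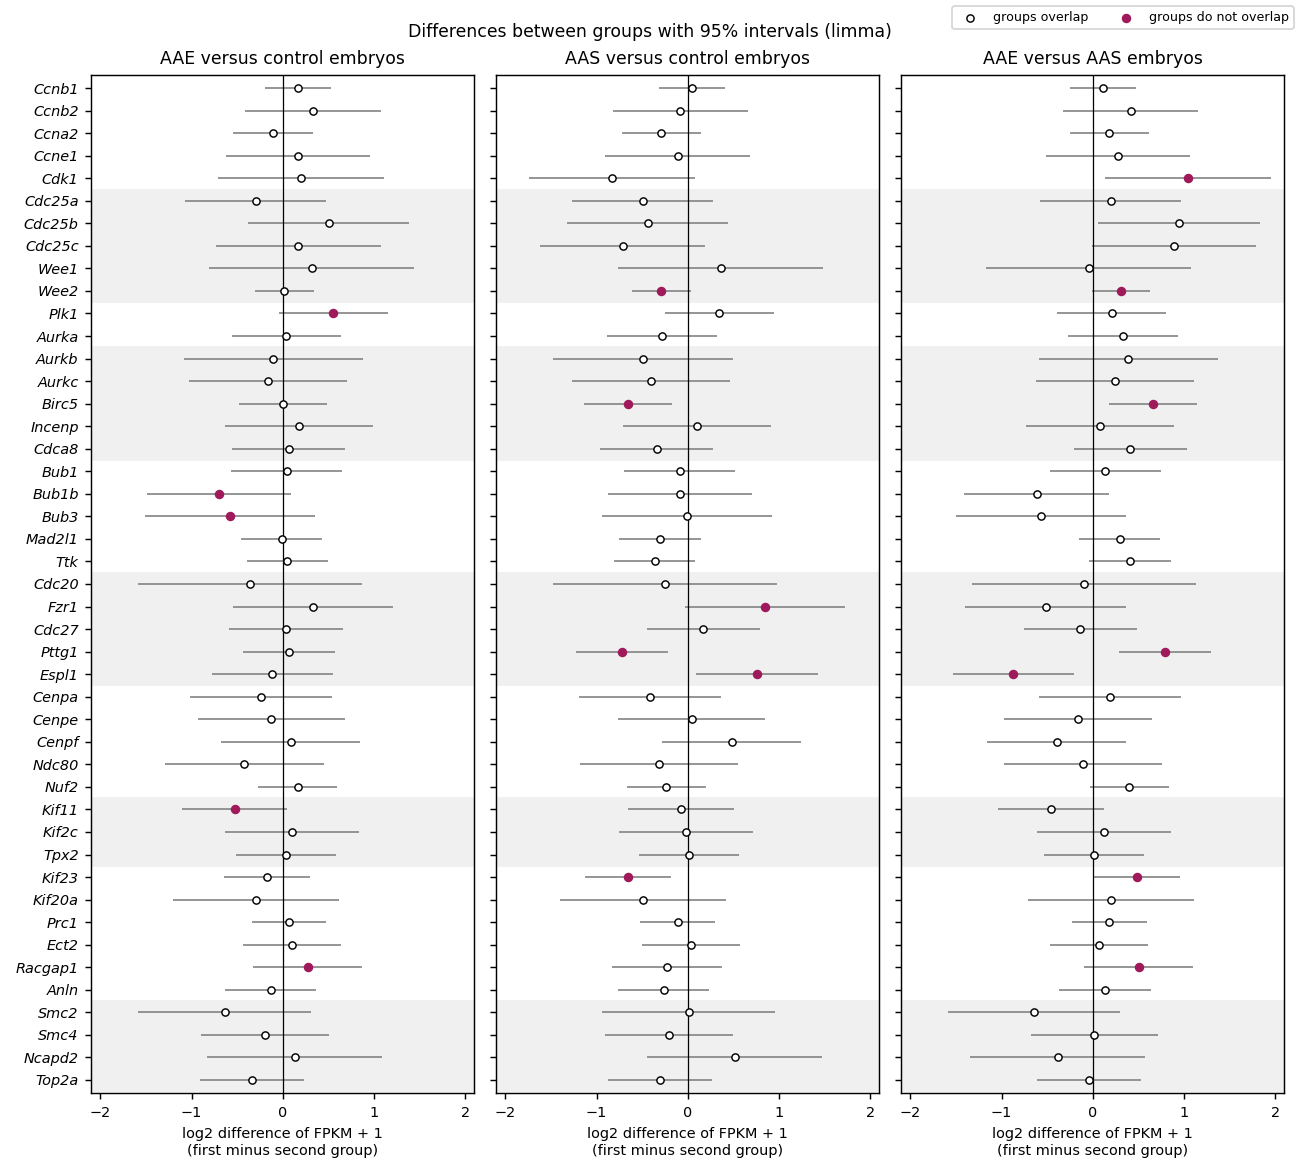
Log2 difference of each of the 45 fitted genes in AAE versus control, AAS versus control and AAE versus AAS embryos, with 95% intervals from limma on log2(FPKM + 1). Filled marks are genes whose 3 libraries in one group all lie beyond the 3 of the other, 5 in the first comparison, 6 in the second and 7 in the third, and no gene passed the adjusted threshold.

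Groups without overlap were found for 5 of the 45 genes in AAE versus control, where 8.51% of all genes had none, for 6 in AAS versus control (13.1% of all genes) and for 7 in AAE versus AAS (11.3%). In AAE, Plk1 and Racgap1 lay above control, as 3.73% of all genes did, and Bub1b, Bub3 and Kif11 below, as 4.78% did. In AAS, Espl1 and Fzr1 lay above control (4.52% of all genes) and Pttg1, Birc5, Kif23 and Wee2 below (8.6%). Between the acrylamide groups, Pttg1, Birc5, Kif23, Wee2, Cdk1 and Racgap1 were higher in AAE (6.98% of all genes) and Espl1 was lower (4.28%).

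Among the cyclins, Ccnb1 was the most even, at 360.3, 408 and 454 FPKM in the control libraries, 404, 435 and 531 in the AAE libraries and 442, 431 and 386 in the AAS libraries. Its groups overlapped, and its log2 difference was 0.16 (95% interval -0.20 to 0.52) in AAE and 0.05 (-0.31 to 0.41) in AAS versus control. Leaving out 1 library at a time, these ran from 0.05 to 0.25 and from -0.04 to 0.13. Ccna2, the cyclin of S phase and mitotic entry, ran from 201 to 339 FPKM over the 9 libraries, Ccnb2 from 63.5 to 199 and Ccne1, the cyclin of entry into S phase, from 21.6 to 62.2. None of these separated the groups. Cdk1 itself stood at 32.05, 26.9 and 17.7 FPKM in the control libraries, 30.8, 29.03 and 26.6 in the AAE libraries and 20.6, 5.91 and 19.4 in the AAS libraries. AAS library 2 was far below the rest, and all 3 AAE libraries were above all 3 AAS libraries. The log2 difference of Cdk1 was 1.04 ± 0.415 (SE) in AAE versus AAS, with an adjusted p = 0.601 in limma, and 0.50 without AAS library 2. In AAS versus control it was -0.83 ± 0.415 (SE), and -0.30 without that library.

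Of the kinases that restrain Cdk1, Wee2 had 70.5 to 351 times the FPKM of Wee1 across the 9 libraries. Wee2 was at 765, 832 and 671 FPKM in the control libraries, 754, 817 and 720.1 in the AAE libraries and 638, 646 and 567 in the AAS libraries. The AAS libraries lay below every control and every AAE library, by a small margin. The log2 difference was -0.29 ± 0.146 (SE) in AAS versus control and 0.31 ± 0.146 in AAE versus AAS, with adjusted p-values of 0.785 and 0.643 in limma. With FPKM rescaled to the same sum in each library these differences were -0.15 and 0.18. The 3 Cdc25 phosphatases, which remove the inhibitory phosphate, were at 5.09 to 12.2 FPKM for Cdc25a, 6.80 to 29.6 for Cdc25b and 10.7 to 56.9 for Cdc25c. Cdc25b stood at 17.5, 14.7 and 11.6 FPKM in the control libraries, 16, 18.97 and 29.6 in the AAE libraries and 7.90, 20.1 and 6.80 in the AAS libraries. AAE library 3 was the highest and AAS libraries 1 and 3 the lowest, while AAS library 2 was within the AAE range. Its log2 difference was 0.94 ± 0.403 (SE) in AAE versus AAS, with an adjusted p = 0.612 in limma.

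Plk1, the kinase that drives mitotic entry, spindle formation and the release of cohesin from chromosome arms, was the gene of the list with the smallest p-value in AAE versus control. It was at 37.1, 33.5 and 31.7 FPKM in the control libraries, 46.6, 45.5 and 60.3 in the AAE libraries and 41.8, 30.8 and 63.95 in the AAS libraries. Every AAE library exceeded every control library, and the AAS libraries spread from below the controls to above AAE. Mean levels were 34.1 ± 2.72 FPKM in control and 50.8 ± 8.24 in AAE (SD, n = 3 each), and the log2 difference was 0.55 ± 0.272 (SE, interval -0.04 to 1.15), with an adjusted p = 1 in limma. In the authors' deposited table its log2 fold change was 0.64 with an adjusted p = 0.800. Aurka, the kinase of centrosomes and spindle poles, was at 67.7, 66.1 and 57.2 FPKM in the control libraries, 66.7, 65.02 and 64.2 in the AAE libraries and 65.3, 31.7 and 67.2 in the AAS libraries. It was nearly level in 8 libraries and lower in AAS library 2.

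The chromosomal passenger complex joins an Aurora kinase with survivin, borealin and Incenp to correct faulty attachments and to prepare cytokinesis. Birc5, which encodes survivin, was at 315, 349 and 199 FPKM in the control libraries, 284, 323 and 239 in the AAE libraries and 165, 186 and 180.4 in the AAS libraries. All AAS libraries were below all others, although control library 3 was close to them. Means were 288 ± 78.7 FPKM for control, 282 ± 41.9 for AAE and 177 ± 10.9 for AAS (SD, n = 3 each). The log2 difference was -0.66 ± 0.22 (SE, interval -1.14 to -0.18) in AAS versus control, with an adjusted p = 0.691 in limma, and 0.66 ± 0.22 in AAE versus AAS. Its partners did not separate the groups. Cdca8 (borealin) ran from 41.7 to 92.3 FPKM, Incenp from 12.1 to 35.8 and Aurkb from 4.32 to 15.4, with Incenp highest in AAS library 1 and both Cdca8 and Incenp lowest in AAS library 2. Aurkc, the Aurora kinase of meiotic cells and early embryos, was at 4.82 to 11.99 FPKM, and the ratio of Aurkb to Aurkc was above 1 in 7 of 9 libraries.

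Of the spindle checkpoint, Bub1b, which encodes the inhibitor BubR1, was at 13.8, 13.8 and 13.8 FPKM in the control libraries, 9.60, 9.03 and 6.09 in the AAE libraries and 22.6, 9.35 and 10.1 in the AAS libraries. The control libraries were almost equal, all AAE libraries were below them, and the AAS libraries lay on both sides. The log2 difference in AAE versus control was -0.70 ± 0.361 (SE, interval -1.49 to 0.09), with an adjusted p = 1 in limma, and the authors' deposited table gives -0.70 with an adjusted p = 0.867. Bub3, which brings BubR1 and Bub1 to kinetochores, was at 14.5, 13.1 and 12.7 FPKM in the control libraries, 12.3, 11.3 and 4.40 in the AAE libraries and 8.87, 11.4 and 22.7 in the AAS libraries. Here too every AAE library was below every control, but 2 of the 3 only slightly. AAE library 3, which stood apart from the other libraries, was the lowest of the 9. After rescaling FPKM to the same sum in each library, AAE library 1 lay above control library 2 for Bub3. The log2 difference of Bub3 was -0.58 ± 0.425 (SE) in AAE versus control and -0.17 without AAE library 3. Bub1, its kinase partner, did not follow, at 18.4 to 35.1 FPKM with the highest value in AAE library 3. Mad2l1, the core inhibitor Mad2, ran from 61.2 to 101 FPKM. Ttk was at 253, 365 and 359 FPKM in the control libraries, 297, 333 and 371 in the AAE libraries and 256, 298 and 205 in the AAS libraries, the most abundant checkpoint RNA. The AAS values were on the low side, with control library 1 among them, and the log2 difference was -0.36 ± 0.202 (SE) in AAS versus control. It was -0.22 without AAS library 3 and also -0.22 with FPKM rescaled to the same sum in each library.

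For securin and separase the AAS libraries lay beyond those of both other groups, in opposite directions, and neither gene passed the adjusted threshold of limma. Of all genes, 13.1% had no overlap in AAS versus control and 11.3% in AAE versus AAS. The share of all genes with a group beyond both others was not counted. Securin (Pttg1) binds separase (Espl1) and keeps it inactive until the APC/C destroys it. Pttg1 was at 658, 716 and 478 FPKM in the control libraries, 454, 731 and 780.2 in the AAE libraries and 416, 324 and 370.3 in the AAS libraries. Every AAS library was below every other library, and the lowest AAE library and the highest AAS library were close. Means were 618 ± 124 FPKM in control, 655 ± 176 in AAE and 370.0 ± 45.8 in AAS (SD, n = 3 each). The log2 difference of Pttg1 was -0.72 ± 0.231 (SE, interval -1.23 to -0.22) in AAS versus control, with an adjusted p = 0.684 in limma. In AAE versus AAS it was 0.79 ± 0.231 (SE, interval 0.28 to 1.30), with an adjusted p = 0.464 in limma.

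Espl1 was at 12.7, 8.04 and 7.40 FPKM in the control libraries, 9.64, 7.99 and 7.57 in the AAE libraries and 17.5, 14.5 and 16.5 in the AAS libraries. Every AAS library was above every other library, and among the rest control library 1 was highest. Means were 9.37 ± 2.88 FPKM in control, 8.40 ± 1.09 in AAE and 16.2 ± 1.54 in AAS (SD, n = 3 each). Its log2 difference was 0.76 ± 0.302 (SE, interval 0.09 to 1.42) in AAS versus control, with an adjusted p = 0.75 in limma, and -0.87 ± 0.302 in AAE versus AAS, with an adjusted p = 0.564 in that test. The ratio of Pttg1 to Espl1 was 51.9, 89.1 and 64.7 in control, 47.1, 91.5 and 103 in AAE and 23.7, 22.4 and 22.4 in AAS. Those of AAS were nearly equal. They had to lie below all others, since every AAS library was lowest for Pttg1 and highest for Espl1. This pair was looked at with its values known and the ratio has no test.

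In the authors' deposited table Espl1 was the one gene of the list past an adjusted p of 0.05. That table gives it a log2 fold change of 0.98 in AAS over AAE with an adjusted p = 0.0445, in a comparison where 55 of 9951 genes (0.553%) were called. For AAS over control the authors' deposited table gives 0.90 with an adjusted p = 0.149. In that table Pttg1 was at -0.78 in AAS over AAE and -0.63 in AAS over control, with adjusted p-values of 0.248 and 0.310. None of the 45 genes was called in the authors' deposited table for AAE over control, where 15 genes (0.147%) were, or for AAS over control, where 35 (0.343%) were.

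Of the APC/C and its activators in the list, Fzr1 separated AAS from control without passing the adjusted threshold, and Cdc20 and Cdc27 overlapped in every comparison. Fzr1, which encodes the activator Cdh1 of late mitosis and G1, was at 7.81, 5.52 and 5.56 FPKM in the control libraries, 4.49, 7.39 and 15.2 in the AAE libraries and 12.7, 11.5 and 11.8 in the AAS libraries. The AAS libraries were close together and above every control, while AAE library 3 was the highest of all. Its log2 difference was 0.85 ± 0.40 (SE, interval -0.03 to 1.73) in AAS versus control, with an adjusted p = 0.78 in limma, and the authors' deposited table gives 1.04 with an adjusted p = 0.248. Cdc20, the activator at anaphase and the target of the checkpoint, ran from 4.86 to 23.9 FPKM with overlap in every comparison. It was above Fzr1 in 7 of 9 libraries and below it in AAE library 3 and AAS library 2. Cdc27, a core APC/C subunit, ran from 59.5 to 132 FPKM, with its highest value in AAS library 1.

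**Figure D3:**
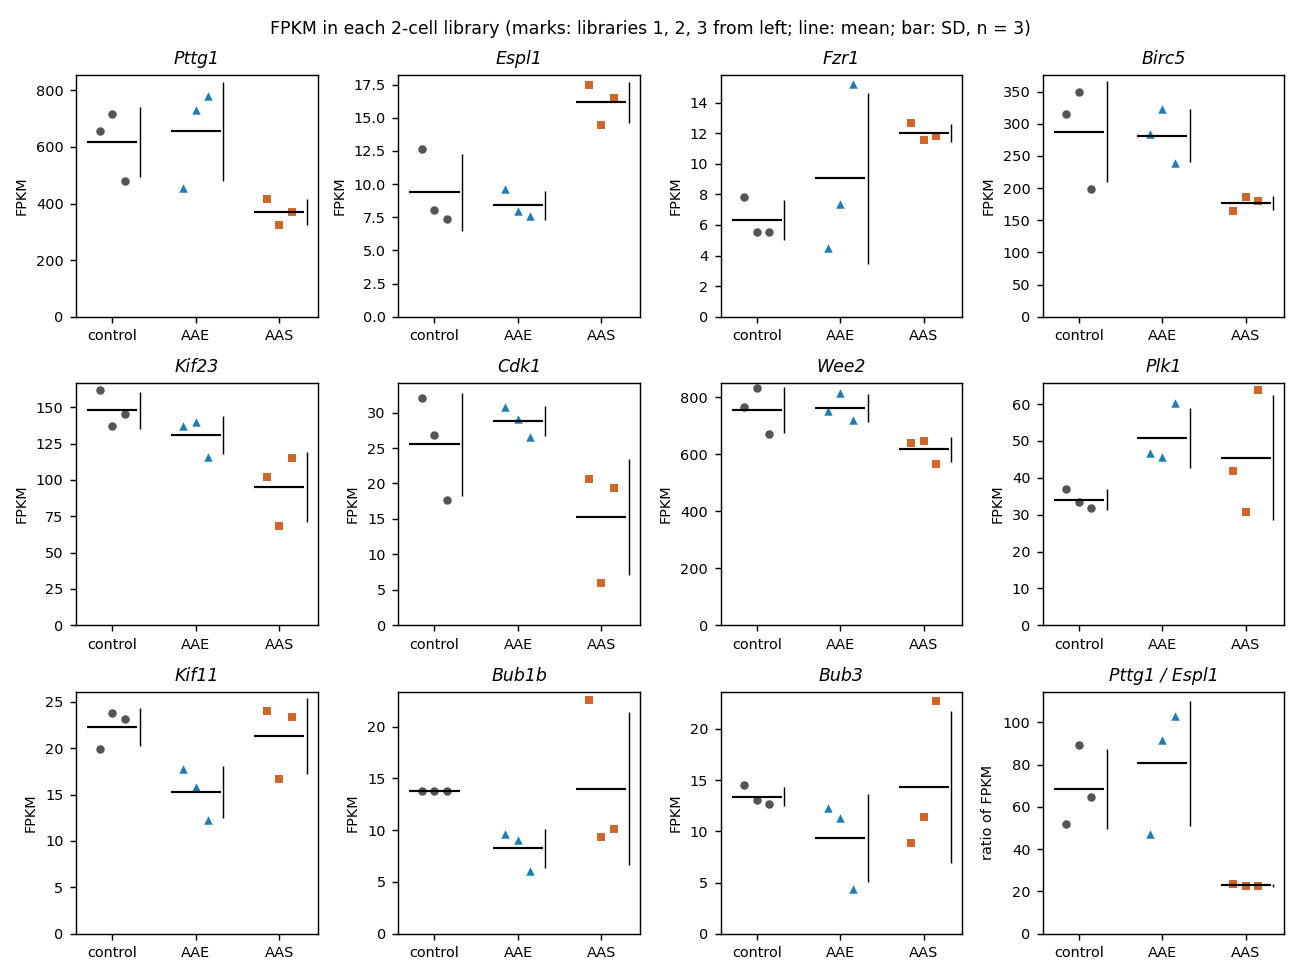
FPKM in each library for 11 genes described in the text and the ratio of Pttg1 to Espl1, with marks for libraries 1, 2 and 3 from left, a line for the mean and a bar for the SD (n = 3 per group). The AAS libraries lie below all others for Pttg1, Birc5, Kif23 and Wee2 and above all others for Espl1, and the AAE libraries lie above control for Plk1 and below it for Kif11, Bub1b and Bub3.

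At centromeres and kinetochores no gene separated the groups in any comparison. Nuf2, part of the Ndc80 complex that grips microtubules, was at 83.1, 90.8 and 92.5 FPKM in the control libraries, 109.5, 106 and 84.8 in the AAE libraries and 63.8, 90.3 and 73.4 in the AAS libraries. Its partner Ndc80 was at 25.3, 12.6 and 14.8 FPKM in the control libraries, 13.8, 13.2 and 10.3 in the AAE libraries and 24.6, 9.88 and 9.57 in the AAS libraries. Control library 1 and AAS library 1 were the highest for Ndc80 and among the lower ones for Nuf2, and the ratio of Nuf2 to Ndc80 ran from 2.59 to 9.14. In AAE the ratio was 7.94, 8.02 and 8.25, above the 3.28, 7.19 and 6.23 of control, with no test. Several gene pairs were looked at in every comparison, and the share of such ratios over all genes was not counted. Cenpf, a large kinetochore protein, was at 37.2, 41.6 and 98.9 FPKM in the control libraries, 71.9, 42.3 and 60.5 in the AAE libraries and 86.8, 73.9 and 66.2 in the AAS libraries. Control library 3 stood far above the other controls, for Cenpf and for the kinetochore motor Cenpe, which ran from 52.9 to 141 FPKM. Cenpa, the histone that marks centromeres, was at 14.2 to 37.98 FPKM with its highest value in control library 1.

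Kif11, the motor that pushes spindle poles apart, was at 19.9, 23.8 and 23.2 FPKM in the control libraries, 17.7, 15.8 and 12.3 in the AAE libraries and 24.1, 16.6 and 23.4 in the AAS libraries. The AAE libraries were below every control, and the AAS libraries were mostly at control level. The log2 difference in AAE versus control was -0.53 ± 0.264 (SE, interval -1.11 to 0.05), with an adjusted p = 1 in limma. Tpx2, which activates Aurka and nucleates microtubules near chromosomes, was at 57.5, 51.2 and 49.3 FPKM in the control libraries, 69.7, 51.7 and 42.9 in the AAE libraries and 69.8, 42.6 and 50.6 in the AAS libraries, with overlap throughout. Kif2c, which shortens microtubules at faulty attachments, ran from 13.3 to 29.8 FPKM, also with overlap.

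Kif23 and Racgap1 form centralspindlin, which bundles microtubules between the separating chromosomes and calls up the contractile ring. Kif23 was at 162, 137 and 145 FPKM in the control libraries, 137, 140.1 and 116 in the AAE libraries and 102, 68.3 and 115 in the AAS libraries. The AAS libraries were below all others, with AAS library 3 only just under AAE library 3. With FPKM rescaled to the same sum in each library, AAS library 3 lay above AAE library 3. Means were 148 ± 12.8 FPKM in control, 131 ± 13.2 in AAE and 95.2 ± 24.2 in AAS (SD, n = 3 each). The log2 difference was -0.66 ± 0.215 (SE, interval -1.13 to -0.19) in AAS versus control, with an adjusted p = 0.687 in limma, and 0.48 ± 0.215 in AAE versus AAS. Without AAS library 2 these were -0.44 and 0.26. Racgap1 was at 37.7, 40.05 and 27.6 FPKM in the control libraries, 41.9, 40.6 and 44.01 in the AAE libraries and 20.3, 31.5 and 39.97 in the AAS libraries. Its AAE libraries were nearly equal and above all others, by a margin smaller than the spread of the controls. After the same rescaling, AAE library 2 of this gene lay below AAS library 3. Its log2 difference was 0.27 ± 0.273 (SE) in AAE versus control and 0.50 ± 0.273 in AAE versus AAS, with adjusted p-values of 1 and 0.677 in limma. The first was 0.11 without control library 3, and 0.70 when the most abundant transcript stood for the gene, and the second was 0.24 without AAS library 1. The other genes of cytokinesis overlapped in every comparison. Prc1, the bundler of the central spindle, ran from 83.8 to 115 FPKM, Ect2, which activates RhoA at the cortex, from 62.6 to 113, the ring scaffold Anln from 40.4 to 77.6 and the motor Kif20a from 10.8 to 35.6.

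Condensin folds chromosomes for mitosis, and topoisomerase II untangles them. Smc4, a core condensin ATPase, was at 96.1, 109.6 and 218 FPKM in the control libraries, 144, 106 and 100.3 in the AAE libraries and 147, 81.7 and 123 in the AAS libraries. Its partner Smc2 was at 5.26, 11.3 and 14.2 FPKM in the control libraries, 7.73, 5.85 and 4.21 in the AAE libraries and 12.2, 5.81 and 12.2 in the AAS libraries. Control library 3 was the highest of the 9 for both, and Smc4 was 9.67 to 23.8 times as abundant as Smc2 per length. The log2 difference of Smc2 was -0.64 ± 0.431 (SE) in AAE versus control, the groups overlapped, and its adjusted p was 1 in limma. It was -0.37 without control library 3 and -1.01 without control library 1. Ncapd2 was at 9.31, 6.44 and 4.18 FPKM in the control libraries, 9.95, 9.11 and 3.69 in the AAE libraries and 12.2, 6.32 and 10.97 in the AAS libraries, with the lowest value in AAE library 3 and the next lowest in control library 3. Top2a ran from 47.3 to 109 FPKM, with its highest value in control library 3.

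Single libraries moved many of these genes at once. AAS library 2 had the lowest value of the 9 libraries for 19 of the 45 genes (42.2%), where it was lowest for 23.3% of all genes tested, and the highest value for none of them (11.8% of all genes). The median deviation of the 45 genes from their own means there was -0.33 on the log2 scale, beside -0.16 for all genes, and the 46 genes summed to 3399 FPKM where the other libraries had 3602 to 4634. Control library 1 was highest for 11 genes (24.4%, and 14.3% of all genes). Control library 3 was highest for 6 (13.3%, and 5.99% of all genes): Cenpe, Cenpf, Anln, Smc2, Smc4 and Top2a. AAE library 3 was lowest for 7 (19.9% of all genes) and highest for 10 (15.2%). The part of these libraries in the AAS and AAE medians was not tested beyond the values without them.

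**Figure D4:**
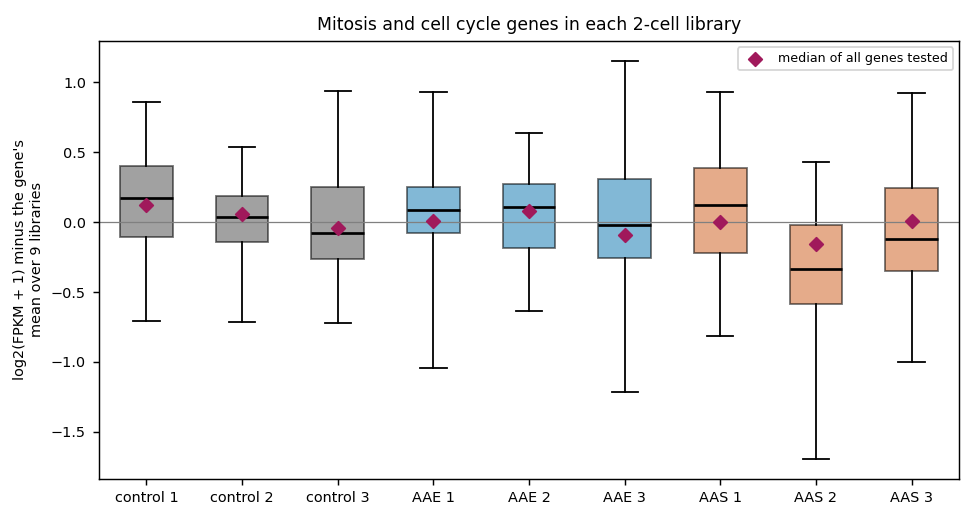
Deviation of each of the 45 genes from its mean over 9 libraries, in log2(FPKM + 1), as a box for each library (line: median, box: quartiles, whiskers: lowest and highest gene), with the median of all genes tested as a diamond. In AAS library 2 the median of the 45 genes is -0.33 and that of all genes -0.16, and in the other 8 libraries the medians of the 45 genes lie between -0.12 and 0.17.

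Replicates were tighter for these genes than for all genes tested. The median coefficient of variation was 19.9% in control, 18.7% in AAE and 31.6% in AAS, beside 26.4%, 36.8% and 40.9% for all genes. At higher levels this did not hold in every group. Among genes averaging at least 20 FPKM, the medians were 19.2%, 14.9% and 25.4% for the 31 genes of the list and 17.8%, 20.4% and 21.7% for all 2929 genes.

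Another 137 genes of the cell cycle were counted as a wider set, and 131 of them passed the limit of 1 FPKM. None was called by limma in any comparison. At an unadjusted limma p under 0.05, 1 of them was higher and 0 were lower in AAE than in control, where 0.891% of all genes were higher and 1.22% lower. In AAS versus control 2 were higher and 5 lower (1.53% and 4.64% of all genes), and in AAE versus AAS 9 were higher and 4 lower (5.53% and 2.2%). Their medians were -0.05, -0.06 and 0.05 on the log2 scale, beside -0.05, -0.11 and 0.05 for all genes. In AAS versus control the smallest p belonged to Nusap1, which bundles spindle microtubules. It was at 117, 92.1 and 100.3 FPKM in the control libraries and 53.2, 71.2 and 62.5 in AAS, without overlap, and the log2 difference was -0.72 with an adjusted p = 0.659 in limma. Anapc2, the cullin subunit of the APC/C, was at 1.18, 3.32 and 3.96 FPKM in the control libraries and 13.1, 8.33 and 7.95 in AAS. All of its AAS libraries were higher, at a log2 difference of 1.55, from low levels. Cdk4, a kinase of G1, was at 2.01, 3.39 and 1.75 FPKM in the control libraries and 1.43, 0 and 0.090 in AAS, where 0 means not listed. In AAE versus AAS the smallest p belonged to Gins2 of the replicative helicase, at 13.7, 22.9 and 15.8 FPKM in AAE and 9.23, 1.10 and 4.60 in AAS. Cenpc1, which links centromeres to kinetochores, was at 4.36, 7.12 and 1.92 FPKM in AAE and 11.03, 11.2 and 16.2 in AAS, and Fbxo5 (Emi1), an inhibitor of the APC/C, at 93.6, 58.7 and 75.2 in AAE and 54.04, 16.9 and 32.9 in AAS. Gins2 and Fbxo5 were higher in AAE, and Cenpc1 was higher in AAS. In AAE versus control the smallest p-values belonged to Ensa, Cdkn1a and Ccnf. Ensa, which restrains the phosphatase PP2A-B55, was at 3.72, 0.96 and 2.81 FPKM in the control libraries and 5.09, 4.64 and 11.4 in AAE. The Cdk inhibitor Cdkn1a had 17.5, 22.9 and 18.1 FPKM in the control libraries and 10.3, 15.2 and 10.01 in AAE, and Ccnf (cyclin F) had 10.5, 8.20 and 5.85 in the control libraries and 2.98, 4.79 and 2.92 in AAE. Ensa was higher in AAE, Cdkn1a and Ccnf lower, each without overlap.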

How the data were processed

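RNA-seq of 9 libraries of 2-cell embryos (3 control, 3 AAE, 3 AAS) was used, and the sperm small RNA libraries of the series, which hold no messenger RNA, were not used here. Per the file headers the values are FPKM per transcript, deposited by the authors with entries at 0 left out, and the submitters' processing notes name HISAT2 2.0.4, DESeq2 and the build mm10 with no role or order. The tool that made the FPKM values, the use of strand and the treatment of reads matching several genes are not given in the sources used here, so reads of genes with near-identical copies can be shared. Log2 fold changes, p-values and adjusted p-values of the authors' deposited table are printed next to the values fitted here and are named as the authors' own.

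FPKM were summed over the transcripts of a gene, an unlisted gene was taken as 0, and genes averaging at least 1 FPKM over the 9 libraries were kept. One limma model (version 3.58.1 in R 4.3.3, eBayes with a trend) was fitted to log2(FPKM + 1) of all 9 libraries, with two-sided tests of 3 comparisons and Benjamini-Hochberg adjustment over 9766 genes, called at 0.05. A count test had been foreseen in case the files held counts, and they hold FPKM. The code was tested on simulated data of 9766 genes. The labels give no batch.

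The 46 genes, their 10 roles, the 137 other cell cycle genes, the marker lists and the gene pairs were chosen with earlier results of these data known, so no direction shown here is independent evidence. Genes given in every library were, by rule, those with the highest mean of their role, the smallest p of their role in each comparison, any called and any past the limit but unlisted somewhere. Mos, Bub3 and Espl1 were added because of their values or role. Of the other cell cycle genes the 3 with the smallest p in each comparison are named. Sequences are from RefSeq (GRCm38.p6). The files' build mm10 is the same assembly, GRCm38. Alternatives were another pseudocount (0.1), no filter or a mean of 5 FPKM, 2 other scalings, fits of 2 groups, array quality weights, a replicate block, the most abundant transcript and leaving out each library. Tables and figures were made in Python 3.11.15 with NumPy 2.4.6, pandas 2.3.3 and matplotlib 3.10.9.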

Additional observations from a re-analysis of the deposited data

How the results depend on the processing

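The p-values rest on 3 libraries per group and an unknown depth. In data simulated for AAE versus control at this size, limma called 14.9% of genes changed by 1 on the log2 scale, 70.1% of those changed by 2 and 84.8% of those changed by 3, with 9766 genes tested and 7 false calls. Only genes with a mean log2(FPKM + 1) above 2 were changed there, and each gene had the same spread in every group. Weaker genes and the unequal variances of the real groups were thus not covered. No gene was called under any alternative. Leaving out 1 library at a time, the median log2 difference of the 45 genes ran from -0.28 to -0.068 in AAS versus control, from -0.035 to 0.067 in AAE versus control and from 0.059 to 0.24 in AAE versus AAS. The AAS median nearest 0, -0.068, came without AAS library 2 and also, in a choice made after the data were seen, without both libraries of lowest correlation, where the AAE versus AAS median was 0.022. In that setting groups without overlap were found for 9, 13 and 20 of the genes and for 1748, 2385 and 3551 of all genes, since fewer samples overlap less often. With FPKM rescaled to the same sum in each library, 21 of the 45 genes were above 0 in AAS versus control and 26 in AAE versus AAS.

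Same-numbered libraries did not deviate together, with correlations from -0.18 to 0.21 over 9 pairs, and control library 1 correlated more with AAE library 2 (0.20) than with AAE library 1 (0.060), so the numbers were not taken to pair the samples. With the replicate number as a block limma called 0 genes. Each number occurs once in every group, so the block could not change the log2 differences. The medians of the 45 genes thus stayed at 0.03, -0.23 and 0.18.

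The signs of Espl1, Birc5, Kif23, Pttg1 and Wee2 held under every alternative in AAS versus control and in AAE versus AAS. Those of Plk1, Kif11, Bub1b and Bub3 did so in AAE versus control. All these genes had groups without overlap in those comparisons. Omitting libraries, another pseudocount or filter, weights, a block or fits of 2 groups could therefore not turn their signs. Only the 2 other scalings and the most abundant transcript could have done so. Signs under each alternative were followed for 24 of the 45 genes, and the log2 differences of those genes that turned sign are given here, none of them called, and the cause was not tested. In AAE versus control, with FPKM rescaled, Birc5 was at 0.011. With equal library medians, Birc5 was at 0.0081. With array quality weights, Pttg1 was at -0.068, Ttk at -0.059 and Wee2 at -0.019. With the most abundant transcript, Birc5 was at 0.0076 and Tpx2 at -0.28. Without AAE library 3 and AAS library 2, Birc5 was at 0.11, Fzr1 at -0.090, Pttg1 at -0.079 and Ttk at -0.032. In AAS versus control, with FPKM rescaled, Bub1b was at 0.044, Bub3 at 0.12 and Kif11 at 0.062. With equal library medians, Bub3 was at 0.056. With array quality weights, Bub3 was at 0.17. With the most abundant transcript, Bub3 was at 0.23, Racgap1 at 0.0077 and Tpx2 at -0.090. Without AAE library 3 and AAS library 2, Aurka was at 0.060, Bub1b at 0.13, Bub3 at 0.090, Kif11 at 0.089 and Smc4 at 0.029. In AAE versus AAS, with FPKM rescaled, Ccnb1 was at -0.014, Incenp at -0.043, Smc4 at -0.11 and Tpx2 at -0.11. With equal library medians, Smc4 was at -0.042 and Tpx2 at -0.045. With array quality weights, Incenp was at -0.014, Ndc80 at 0.035, Plk1 at -0.014 and Smc4 at -0.019. With the most abundant transcript, Tpx2 was at -0.19. Without AAE library 3 and AAS library 2, Aurka was at -0.0090, Incenp at -0.27, Plk1 at -0.16 and Smc4 at -0.12. Leaving out 1 library at a time turned the sign in AAE versus control for Aurka (-0.035 to 0.085), Birc5 (-0.25 to 0.16), Cdk1 (-0.029 to 0.38), Cenpf (-0.17 to 0.52), Espl1 (-0.25 to 0.10), Fzr1 (-0.090 to 0.69) and Incenp (-0.0037 to 0.31). It also did so there for Ncapd2 (-0.12 to 0.52), Pttg1 (-0.11 to 0.31), Smc4 (-0.42 to 0.17), Tpx2 (-0.15 to 0.19), Ttk (-0.12 to 0.14) and Wee2 (-0.065 to 0.090). Leaving out 1 library at a time turned the sign in AAS versus control for Aurka (-0.47 to 0.060), Bub1b (-0.46 to 0.13), Bub3 (-0.38 to 0.25), Ccnb1 (-0.037 to 0.13) and Incenp (-0.21 to 0.53). It also did so there for Kif11 (-0.16 to 0.089), Racgap1 (-0.44 to 0.032), Smc2 (-0.37 to 0.33), Smc4 (-0.44 to 0.15) and Tpx2 (-0.18 to 0.17). Leaving out 1 library at a time turned the sign in AAE versus AAS for Aurka (-0.021 to 0.51), Incenp (-0.36 to 0.39), Ncapd2 (-0.65 to 0.0027) and Ndc80 (-0.33 to 0.31). It also did so there for Plk1 (-0.036 to 0.48), Smc4 (-0.22 to 0.20) and Tpx2 (-0.17 to 0.21).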
